A study of Mus musculus with 4 samples.

Results

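Female mouse livers were profiled 8 days after treatment with small interfering RNA (siRNA) against Cux2, on 2 dye-swapped arrays out of the 4 in the study. The arrays were chosen by their labels, as the pair marked with the 8-day Cux2 siRNA treatment, and the description runs across 25095 genes, those with a probe flagged by the scanner software as well above background in 2 or more of the 8 readings (4 arrays, 2 channels each). All mice were 8-week-old females of the outbred CD-1 stock. The treated RNA on each array was a pool of 2 livers, so that 4 treated mice are represented, and the partner on each array was a control pool from females given a non-specific siRNA. The series text counts 13 control mice in pools of 6 or 7, whereas the sample descriptions give 6 control mice for each array. Which control pool went on which array, when the controls were killed, how the siRNA was delivered and at what hour livers were taken are not in the labels. On replicate 1 the treated pool carried Alexa 647 and on replicate 2 it carried Alexa 555, so replicate number and dye orientation are the same thing here. The other pair of arrays, from mice killed at day 5, was set against pools of the same control group, so that controls may be shared, and enters only to estimate the spread between arrays and for values side by side. Ratios are log2 of treated over control, so a value of 1 means a doubling.

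Cux2 encodes a transcription factor with Cut repeats and a homeodomain. In adult mouse liver it is a female-specific factor under the control of the pituitary growth hormone pattern, and it is known there as a repressor of many male-biased genes and an activator of some female-biased ones. The liver also makes most plasma proteins, including the acute phase proteins released in inflammation, and it houses resident macrophages, endothelium and stellate cells whose RNA is read together with that of hepatocytes.

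Cux2 RNA itself was lower in both treated pools at day 8. Its ratio was -1.07 on replicate 1 and -1.20 on replicate 2 (mean -1.13 ± 0.09 SE, adjusted p = 0.00701), or 45.6% of control. In the normalized channels its brightness was 1070 in the control and 508 in the treated pool on replicate 1, and 827 and 361 on replicate 2. Both treated readings lie below both control readings. The value rests on 1 probe, and its adjusted p was 0.0659 without replicate 2 and 0.277 when arrays were only centred on their median. Of the other genes with Cut domains, Onecut1 rose (0.38 and 0.44, adjusted p = 0.0406), while Cux1 (0.03 and -0.16, adjusted p = 0.664) and Onecut2 (0.15 and -0.01, adjusted p = 0.605) did not pass the test. Each pair of values in this text gives replicate 1 first and replicate 2 second.

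At day 8, 3597 of 25095 genes (14.3%) changed, that is, had an adjusted p under 0.05 in a limma fit over all 4 arrays with Benjamini-Hochberg adjustment. Of these, 1575 rose (6.28% of the genes tested) and 2022 fell (8.06%). Without replicate 1 the count was 763, and without replicate 2 it was 137; in both cases the spread comes from the day 5 arrays and the lone pool is assumed to vary like those. Centring each array on its median in place of the intensity-dependent loess curve left 3 calls, and the scanner's own processed signals gave 1476. Of the 771 members of gene lists tested, 294 passed, with 148 without replicate 1 and 41 without replicate 2. Large falls were more frequent than large rises: 466 genes fell at least 2-fold (1.86% of genes tested) against 144 that rose as much (0.574%), and 120 fell at least 4-fold against 9 rises. At 8-fold the counts were 43 falls and 1 rise. The median over all genes was 0.0042, and the median standard error was 0.0824. Of all genes tested, 71.1% had one sign on both arrays. The 3596 called genes with a value on both arrays all did, which the call nearly requires, since it rests on these same arrays. The other called gene, Sult2a8, had no value on replicate 1, where its spot was left out as an outlier, and its rise rests on replicate 2 and the day 5 arrays. In bulk liver, fewer cells of a type and less RNA per cell cannot be told apart, and since mice were pooled, p-values here reflect how pools and dye orientations vary, not single animals.

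**Figure D1:**
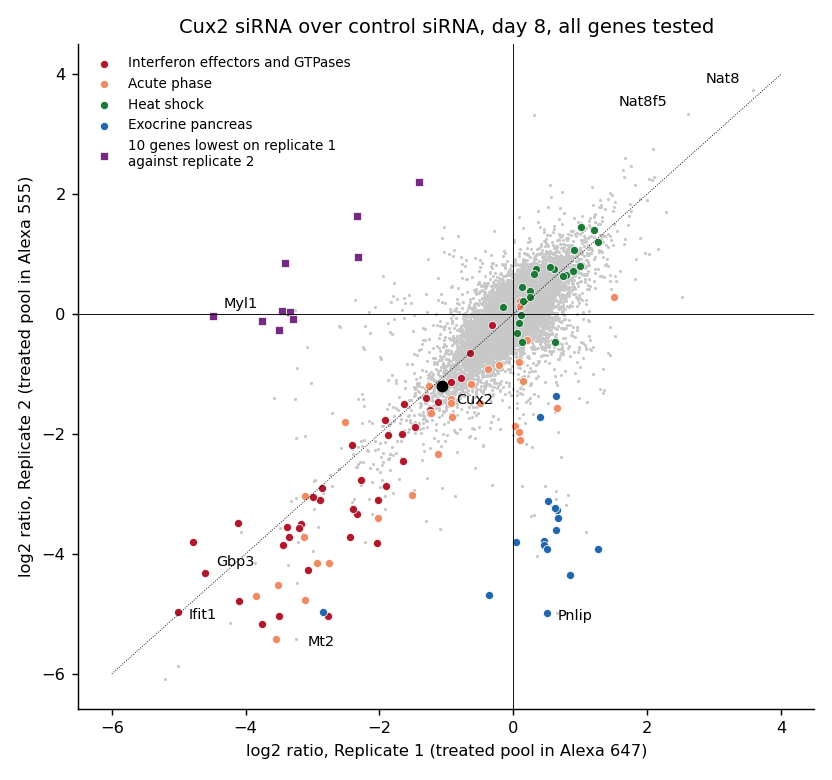
Log2 ratio of Cux2 siRNA over control siRNA for every gene tested at day 8, replicate 1 (x axis) against replicate 2 (y axis), with members of 4 gene lists, the 10 genes lowest on replicate 1 against replicate 2 and Cux2 in colour. Interferon-induced genes are below 0 on both arrays, and some lie well under the dotted line of equality, as Gbp8 (-2.77 and -5.04) does. Pancreatic genes are below 0 mainly on replicate 2, and the purple squares mainly on replicate 1.

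The arrays stood apart from each other in genes of other organs. Replicates differed by at least 2-fold for 394 genes and by at least 4-fold for 85. Of the 10 genes that were highest on replicate 1 against replicate 2, 9 encode pancreatic products. Pnlip, pancreatic lipase, had ratios of 0.50 and -4.98. Its brightness was 3940 in the control and 5570 in the treated pool on replicate 1, and 11800 and 374 on replicate 2. The treated pool of replicate 2 was the low reading, and the treated pool of replicate 1 was within the range of the controls. Cpb1, a pancreatic carboxypeptidase, had ratios of 1.27 and -3.92, and Prss2, a trypsinogen, 0.46 and -3.85. Over the 16 pancreatic markers measured, all well above background in each pool, the medians were 0.51 and -3.79, and the summed brightness of the treated pool was 146% of control on replicate 1 and 16.8% on replicate 2. One member, Reg2, passed the test, and 12 passed without replicate 1.

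Striated muscle genes had the opposite array order. Of the 10 genes lowest on replicate 1 against replicate 2, 8 encode muscle proteins and the other two, Krtdap and Lor, proteins of keratinized skin. Myl1, a myosin light chain, had ratios of -4.48 and -0.03. Its brightness was 3370 in the control and 151 in the treated pool on replicate 1, and 1100 and 1080 on replicate 2. Here the treated pool of replicate 1 was the low reading and the replicate 2 channels were nearly equal. Acta1, skeletal muscle actin, had ratios of -3.46 and 0.05, and Mb, myoglobin, -3.76 and -0.11. None of these 20 genes passed the test.

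**Figure D2:**
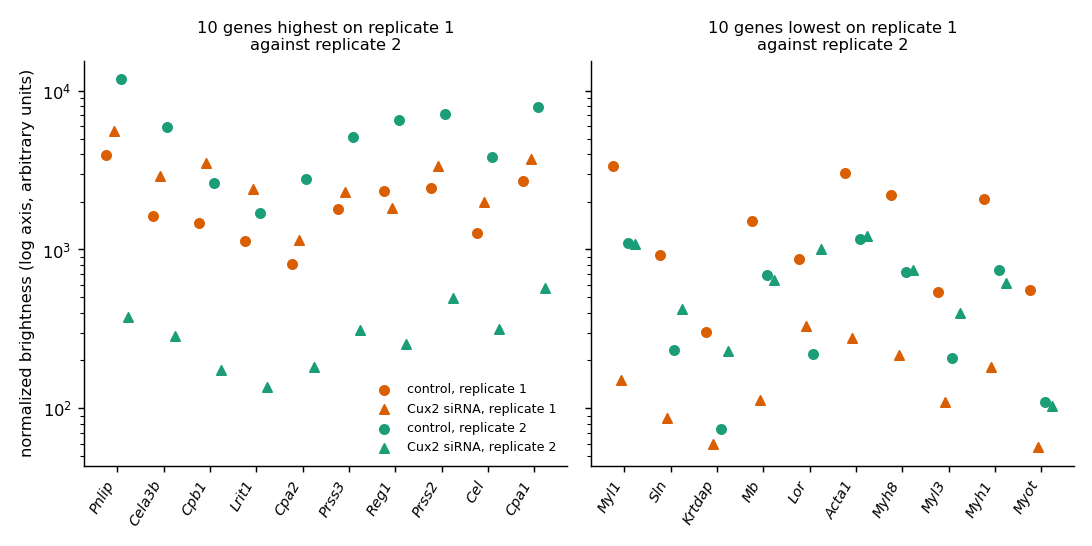
Normalized brightness (log axis) of the 20 genes whose 2 day 8 ratios differed most, with circles for control pools, triangles for Cux2 siRNA pools, orange for replicate 1 and green for replicate 2. In the left panel the green triangles are the low readings (374 for Pnlip), and in the right panel the orange triangles are the lowest for every gene but Lor (151 for Myl1).

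Hepatocyte markers were split by array too. All 17 were above background in every pool, but 12 had opposite signs on the arrays. Alb, serum albumin, had ratios of 0.91 and -0.64, and Ahsg, fetuin A, 1.0 and -0.88. The summed brightness of treated hepatocyte markers was 141% of control on replicate 1 and 61.7% on replicate 2. These are among the brighter spots, with readings from 32100 to 417000. Ttr, transthyretin, was the 1 member that passed (-0.36 and -0.41, adjusted p = 0.0322). The part of this array difference in the results on abundant liver RNAs below was not tested.

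The 15 largest falls were dominated by interferon-induced and inflammatory genes. Ifit1, an antiviral protein that binds foreign RNA, fell most: its ratio was -5.01 on replicate 1 and -4.96 on replicate 2 (mean -4.99 ± 0.12 SE, adjusted p = 0.00155), or 3.15% of control. Its brightness was 30600 in the control and 948 in the treated pool on replicate 1, and 49700 and 1590 on replicate 2. Gbp3, a guanylate-binding GTPase, had -4.60 and -4.33 (mean -4.47 ± 0.09 SE, adjusted p = 0.00155). Its brightness was 39400 in the control and 1620 in the treated pool on replicate 1, and 42300 and 2110 on replicate 2. For both genes the pools separated by more than 10-fold on each array, and the replicates differed little. Gbp6 (-3.75 and -5.17), Gbp8 (-2.77 and -5.04), Tgtp1 (-4.09 and -4.78) and Igtp (-3.50 and -5.04) encode GTPases of the same interferon-induced families, and Ifi44 (-4.78 and -3.81) is another interferon-induced gene. Saa1 (-3.55 and -5.42), Saa3 (-3.11 and -4.77) and Orm2 (-3.51 and -4.52) encode acute phase proteins, and Lcn2 (-3.84 and -4.71) a siderophore-binding lipocalin of innate defence. Mt2, a metal-binding metallothionein, had -3.24 and -5.42. Its brightness was 377000 in the control and 39800 in the treated pool on replicate 1, and 364000 and 8520 on replicate 2. The treated pool of replicate 2 was the lower of the treated readings for Mt2, as it was for the Saa genes. Cxcl9 (-3.86 and -4.15) and Cxcl10 (-3.23 and -4.49) are chemokines that attract T cells, and Reg2 (-2.85 and -4.97) is a pancreatic and regenerating-islet protein whose treated readings, 68.7 and 92.9, were near the offset of 50 added before the logarithm.

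The 15 largest rises were smaller and came from genes of varied function. Nat8, an N-acetyltransferase that completes mercapturic acids from glutathione conjugates, rose most, with 3.58 on replicate 1 and 3.73 on replicate 2 (mean 3.66 ± 0.10 SE, adjusted p = 0.00155), or 12.6-fold. Its brightness was 682 in the control and 8160 in the treated pool on replicate 1, and 785 and 10500 on replicate 2. Nat8f5, a relative in the same gene family, had 2.60 and 3.34 (mean 2.97 ± 0.21 SE, adjusted p = 0.00637). The pools did not overlap for either gene. Gdpd3, a lysophospholipase D, had 2.09 and 2.74, and Slc17a8, a vesicular glutamate transporter, 2.08 and 2.24. Acot1, a cytosolic acyl-CoA thioesterase, had 2.02 and 2.25. Its brightness was 4400 in the control and 17900 in the treated pool on replicate 1, and 3190 and 15200 on replicate 2. Ces1e, a carboxylesterase, was nearly the same on both arrays (2.0 and 1.90), as was Tmc7 (1.75 and 1.83), a transmembrane channel-like protein. Mean ratios ranged from 0.09 to 1.79 over the 3 probes of Tmc7, and from 0.66 to 2.16 over the 2 of Slc17a8. Ntrk2, the receptor of brain-derived neurotrophic factor, had 1.64 and 2.41, Phlda2, an imprinted gene, 2.28 and 1.70, and Npb, neuropeptide B, 1.81 and 2.15. Colec10 (1.45 and 2.02) is a collectin of innate immunity, Pnpla3 (1.47 and 1.98) a lipase of lipid droplets, Hsd3b1 (1.17 and 2.11) a steroid dehydrogenase and Adgrv1 (1.73 and 1.64) an adhesion receptor. Per2 (1.50 and 1.78), a core repressor of the circadian clock, closed the list, and its 2 probes had mean ratios of 0.07 and 1.64. For all 30 of these genes the 2 treated readings lay on one side of the 2 control readings. They were picked as the largest changes with one sign on both arrays, so this largely follows from the pick. The share over all genes was not worked out. Of the 30, 27 passed without replicate 1, and 16 passed without replicate 2.

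**Figure D3:**
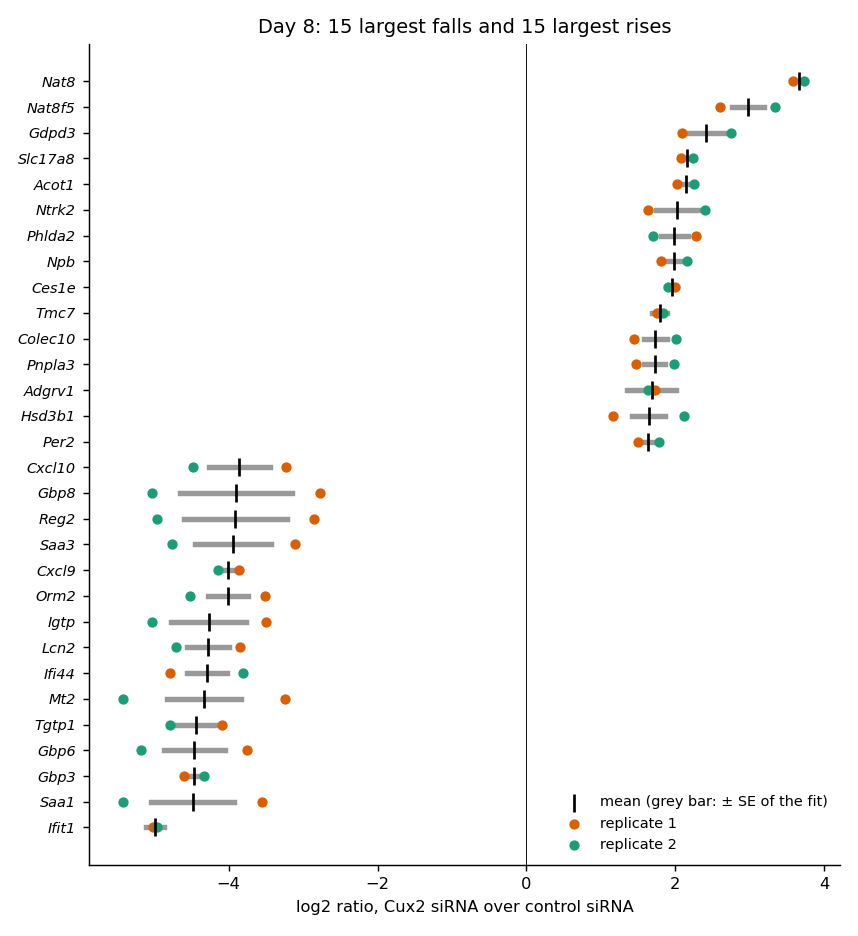
Log2 ratios of the 15 largest falls and the 15 largest rises at day 8 on replicate 1 (orange) and replicate 2 (green), with the mean as a tick and its standard error from the fit as a grey bar. Ifit1 and Gbp3 were nearly equal on the arrays, whereas Mt2, Saa1 and Gbp8 were more than 2-fold lower on replicate 2.

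Type I and type II interferons signal through receptors, JAK kinases and STAT factors, which then switch on many defence genes through short promoter elements. At the level of the receptors and signalling proteins, 4 of 15 genes fell and none rose. Ifnar2, a subunit of the type I receptor, had -0.66 and -0.70 and Ifngr2, a subunit of the type II receptor, -0.49 and -0.34. Irf7, which amplifies type I interferon production, had -2.74 and -2.68 (mean -2.71 ± 0.07 SE, adjusted p = 0.00155). Irf7 is itself interferon-induced. The other signalling genes gave Ifnar1 -0.19 and -0.31, Jak1 -0.20 and 0.04 and Irf3 0.03 and 0.05, and Irf9 had opposite signs on the arrays (0.48 and -1.13). The list median was -0.32, and 2 passed without replicate 1 and 2 without replicate 2.

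Among antiviral effectors, 25 of the 26 tested fell and none rose, with a list median of -2.0. Isg15, a ubiquitin-like modifier, had -2.89 and -3.10 (mean -3.0 ± 0.09 SE, adjusted p = 0.00155), and its remover Usp18 -3.20 and -3.56. Rsad2, or viperin, which makes a chain-terminating nucleotide, had -3.36 and -3.71. Ifit2 (-2.86 and -2.91) and Ifit3 (-2.99 and -3.05) fell by nearly the same amount on each array. The sensors of viral RNA moved less, with Ddx58 (RIG-I) at -0.93 and -1.14 and Ifih1 (MDA5) at -1.30 and -1.39. Within the oligoadenylate synthetases, which activate an RNase, Oasl2 had -4.12 and -3.48 and Oas3 -0.64 and -0.64, while Oas1g did not pass (-0.32 and -0.19, adjusted p = 0.0825). Without replicate 1, 21 of the list fell, and without replicate 2, 14 fell. All 13 interferon-induced GTPases tested fell, with a median of -3.07 on replicate 1 and -3.86 on replicate 2. The smallest fall was that of Gbp5 (-1.90 and -2.87). For these GTPases, 11 passed without replicate 1 and 4 without replicate 2. Several are close copies of one another, and whether a probe also bound a relative was not tested.

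The promoters of the leading genes are shown because they can be searched for the interferon-stimulated response element, whose core was taken as GAAA, any 2 bases and GAAA again, on either strand with overlapping matches allowed. Each sequence is the 250 bases before the annotated start in the RefSeq table of GRCm38.p6, 5′ to 3′ on the gene's strand, with matches in capitals. Ifit1 lies on the plus strand (chr19:34640639-34640888), Isg15 on the minus strand (chr4:156200819-156201068), and Gbp3 (chr3:142559794-142560043) and Igtp (chr11:58199306-58199555) on the plus strand.
Ifit1: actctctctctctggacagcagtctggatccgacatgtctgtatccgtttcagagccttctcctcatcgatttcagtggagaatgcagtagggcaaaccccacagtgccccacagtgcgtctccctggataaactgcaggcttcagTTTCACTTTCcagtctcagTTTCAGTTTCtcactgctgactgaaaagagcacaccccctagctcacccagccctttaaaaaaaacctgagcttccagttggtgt
Isg15: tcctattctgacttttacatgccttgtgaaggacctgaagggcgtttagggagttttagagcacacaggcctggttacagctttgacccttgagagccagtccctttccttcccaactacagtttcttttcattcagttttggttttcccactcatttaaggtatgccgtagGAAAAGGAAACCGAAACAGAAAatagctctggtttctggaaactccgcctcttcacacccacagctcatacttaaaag
Gbp3: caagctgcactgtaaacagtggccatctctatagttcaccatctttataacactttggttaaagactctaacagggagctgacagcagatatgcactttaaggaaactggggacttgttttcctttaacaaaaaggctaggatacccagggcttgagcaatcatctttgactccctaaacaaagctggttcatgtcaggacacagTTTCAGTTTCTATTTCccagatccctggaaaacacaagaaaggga
Igtp: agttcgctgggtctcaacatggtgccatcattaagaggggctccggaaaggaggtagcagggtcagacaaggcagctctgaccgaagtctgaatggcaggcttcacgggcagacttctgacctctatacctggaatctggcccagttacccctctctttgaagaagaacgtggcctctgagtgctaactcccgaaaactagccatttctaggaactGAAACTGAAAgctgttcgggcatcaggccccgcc
Ifit1 holds 2 matches, whose 5′ ends are 104 and 85 bases before the start. Isg15 holds 3 overlapping matches 78, 72 and 66 bases before it, and Gbp3 holds 2, at 45 and 39 bases. Igtp holds 1, at 34 bases. A promoter was in the table for 8 of the 13 GTPase genes, and all 8 held a match. For the antiviral effectors 9 of 18 promoters did, and for the 15 largest falls 6 of the 13 found. Over all 27025 genes with a promoter in the table the share was 3.04%, and over those tested here 2.96%. The promoter of Cxcl10 held 1 match, 213 bases before the start, and that of Cxcl9 held none in this window. A match is a run of letters and not evidence of binding.

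Genes that load peptides on class I molecules fell with the interferon genes. Of 18 antigen presentation genes, 14 fell and none rose, with a median of -1.25. The peptide transporter gave Tap1 -2.28 and -2.85 and Tap2 -1.35 and -1.68, and the inducible immunoproteasome subunits Psmb9 -1.99 and -2.88, Psmb8 -1.87 and -1.96 and Psmb10 -1.20 and -1.45. B2m, the light chain of class I, was lower on both arrays without passing (-0.25 and -0.87, adjusted p = 0.232). On the class II side, H2-DMa (-1.06 and -1.68), H2-DMb1 (-1.35 and -1.90) and Cd74 (-0.53 and -0.96) fell, whereas H2-Aa (-0.74 and -0.66), H2-Ab1 (-0.25 and -1.15) and their regulator Ciita (-0.33 and -1.80) did not pass. For this list, 11 passed without replicate 1 and 1 without replicate 2. Of 17 chemokines, 5 fell and 1 rose. After Cxcl9 and Cxcl10 the falls were in Ccl2 (-2.32 and -2.50) and Ccl7 (-1.84 and -2.34), which attract monocytes, and in Cxcl14 (-1.02 and -1.01). Ccl27a rose (0.57 and 0.60). The chemokine falls numbered 7 without replicate 1 and 3 without replicate 2.

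Several of the falling genes lie side by side in the genome. Runs of at least 4 neighbouring tested genes that all changed at least 1.5-fold in one direction were looked for after the values were seen. The Slfn cluster on chromosome 11 gave 7 falls in a row, from Slfn4 (-2.18 and -2.27) to Slfn1 (-0.82 and -1.06). Slfn4 and Slfn1, growth-regulatory Schlafen genes, were not well above background in the treated pools, so the size of their falls is uncertain. The mean of Slfn4 was -2.23 in the main fit, -0.79 without background subtraction and -5.09 with the scanner's processed signals. That of Slfn1 was -0.94, -0.26 and -3.58 in the same settings. The Ifi200 cluster on chromosome 1 gave 6 falls, with Ifi202b at -2.57 and -2.24 and Ifi205 at -0.59 and -1.08. Its products include sensors of DNA. The size of the Ifi205 fall is uncertain too. Its mean was -0.835 in the main fit, -0.26 without background subtraction and -2.04 with the scanner's processed signals, and it passed only in the main fit of these. The Ms4a cluster on chromosome 19 also gave 6, between -2.36 for Ms4a4c and -0.95 for Ms4a4b, and encodes membrane proteins of leukocytes. Guanylate-binding proteins fell in 2 runs, 5 genes on chromosome 3 and 4 on chromosome 5. On chromosome 17 the run comprised H2-DMb1, Psmb9, Tap1, Psmb8 and Tap2. One run rose, the 5 carboxylesterases from Ces2a to Ces2f on chromosome 8, between 0.68 and 1.43.

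Acute phase proteins were lower as well, with a larger fall on replicate 2. Of 31 acute phase genes, 18 fell and none rose, and the list median was -0.93 on replicate 1 and -1.72 on replicate 2. For Saa1, a serum amyloid A of high-density lipoprotein, brightness was 803000 in the control and 68700 in the treated pool on replicate 1, and 447000 and 10400 on replicate 2. The treated pools were both below the controls, and that of replicate 2 was lower still. Orm1 (-2.75 and -4.16) and Orm3 (-3.13 and -3.72), the orosomucoids, moved with Orm2. The scavengers of haemoglobin and haem, Hp (-1.51 and -3.01) and Hpx (-2.02 and -3.41), were each more than 2-fold lower on replicate 2 than on replicate 1, whereas A2m, a broad protease inhibitor, gave -3.11 and -3.03, with a mean of -4.75 from the scanner's processed signals and -1.46 without background subtraction. Socs3, the feedback inhibitor induced by interleukin 6, had -0.93 and -1.49 and Stat3, which carries that signal, -0.73 and -1.17. The fibrinogen chains did not pass and were low on replicate 2 alone, as Fgb (0.09 and -1.97) shows. Hamp, the iron hormone hepcidin, had 1.50 and 0.28 and did not pass (adjusted p = 0.169). Of the list, 16 passed without replicate 1 and 5 without replicate 2.

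Metallothioneins were the main movers among 15 metal-handling genes, of which 3 fell and 1 rose. Mt1 had -2.99 and -3.95 (mean -3.47 ± 0.28 SE, adjusted p = 0.00758) beside Mt2, and Steap4, a metalloreductase, -0.55 and -0.73. The zinc exporter Slc30a1, which answers to zinc through the same promoter element as the metallothioneins, had 0.02 and 0.06 (adjusted p = 0.798). Its 2 probes disagreed in sign, with means of 0.04 for the brightest, used here, and -0.47 for the other. Atp7b, the copper pump, rose (0.33 and 0.30). With either array left out, 2 of these genes fell and 0 rose. The promoter of Mt2 is shown for that element, with the core TGCACNC or TGCGCNC on either strand in capitals; it lies on the plus strand of GRCm38.p6 (chr8:94172368-94172617).
Mt2: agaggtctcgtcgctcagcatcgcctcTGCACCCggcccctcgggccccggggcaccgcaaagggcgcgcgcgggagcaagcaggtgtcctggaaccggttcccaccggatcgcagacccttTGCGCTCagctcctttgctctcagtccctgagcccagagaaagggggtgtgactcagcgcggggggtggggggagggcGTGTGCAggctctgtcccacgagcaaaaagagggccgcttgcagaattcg
It holds 3 matches, 223, 128 and 50 bases before the start, and the 250 bases before Mt1 hold 1. The core is common: 21.3% of all promoters held at least 1.

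Complement and coagulation genes moved less. Of 26 complement genes, 8 fell and none rose, led by Serping1, the inhibitor of the first component (-1.17 and -1.52). C3 was low on replicate 2 alone (0.06 and -1.83, adjusted p = 0.361). The 3 chains of C1q, which macrophages make, gave -0.46 and -0.97 for C1qa, -0.27 and -0.99 for C1qb and -0.31 and -0.89 for C1qc, and none passed. Of 22 coagulation genes, 4 fell, among them Cpb2 (-0.84 and -1.68), F11 (-0.63 and -0.64) and F7 (-0.31 and -0.60). The share of coagulation genes that fell was 18.2%, against 8.06% of all genes. Without replicate 1 the falls numbered 1 for complement and 0 for coagulation, and without replicate 2 there were 0 of either.

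Some markers of macrophages, neutrophils and lymphocytes fell beside these immune genes. All 18 macrophage markers tested were above background in every pool, and 8 of them fell, with a median of -0.67. Their summed brightness in the treated pool was 69.7% of control on replicate 1 and 52.5% on replicate 2, or 99900 against 143000 and 83200 against 158000. Marco, a scavenger receptor, fell most (-2.42 and -3.13). Of the markers of resident Kupffer cells, Clec4f (-0.27 and -0.51) and Cd5l (-0.65 and -0.94) fell, while Timd4 (-0.47 and -1.0) and Vsig4 (-0.10 and 0.01) did not pass. The general macrophage genes Adgre1 (-0.41 and -0.59) and Csf1r (-0.02 and -0.58) did not pass either. Of this list, 1 passed without replicate 1 and 0 without replicate 2. Of 10 neutrophil markers 4 fell, and the summed brightness was 17.1% and 30.7% of control, a sum led by the calgranulins S100a8 (-3.12 and -2.04) and S100a9 (-3.25 and -2.08). Mpo (-0.74 and -0.67) and Cxcr2 (-0.67 and -0.73) fell too, but their means depended on the background: -2.0 and -2.09 with the scanner's processed signals, and -0.18 and -0.17 without background subtraction. The list median ranged from -1.40 to -0.18 between ways of normalizing. Camp (-0.03 and -0.0031) was near 0, and Ngp and Mmp8 were not well above background in every pool. Of 16 lymphocyte markers 5 fell, all genes of cytotoxic or natural killer cells, such as Gzma (-0.80 and -1.92) and Klrk1 (-0.60 and -0.75). The T cell gene Cd3e (0.05 and -0.24) did not pass, and the list's summed brightness was 79.9% and 67.3% of control. Without replicate 1, 0 neutrophil and 2 lymphocyte markers passed, and without replicate 2 there were 0 of each. The part of these cell markers in the interferon, antigen presentation, chemokine and acute phase results was not tested.

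Other cell types of the liver gave a different picture. Of 17 endothelial markers, 1 rose (Ehd3, 0.43 and 0.66) and none fell, with a median of 0.02 and a summed brightness of 104% and 112% of control. The share that rose, 5.88%, is near the 6.28% of all genes. Stab2 (-0.03 and -0.01) and Pecam1 (-0.25 and -0.44) are examples that did not pass. Of 9 biliary markers 1 rose (11.1%), Sox9 (0.42 and 0.75), and of 7 erythroid markers 1 rose (14.3%), Alas2 (0.57 and 0.54). With 1 gene each, these shares cannot be told from that of all genes. Of 18 stellate cell and fibroblast genes, 9 fell, 2 rose and 7 did not pass. The summed brightness of this list in the treated pool was 78.8% of control on replicate 1 and 99.3% on replicate 2. Those that fell included matrix and contractile genes, Col4a1 (-1.51 and -1.83), Col1a1 (-1.44 and -1.16), Col3a1 (-1.49 and -0.98), Timp1 (-0.86 and -1.28) and Tagln (-1.21 and -1.36). Those that rose were Lrat (0.63 and 0.87), which esterifies retinol for storage, and Reln (0.74 and 1.24), both products of stellate cells. Of the falls, 3 passed without replicate 1 and 0 without replicate 2, and of the rises, 1 and 0. With either array left out, 0 endothelial, biliary or erythroid markers passed.

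**Figure D4:**
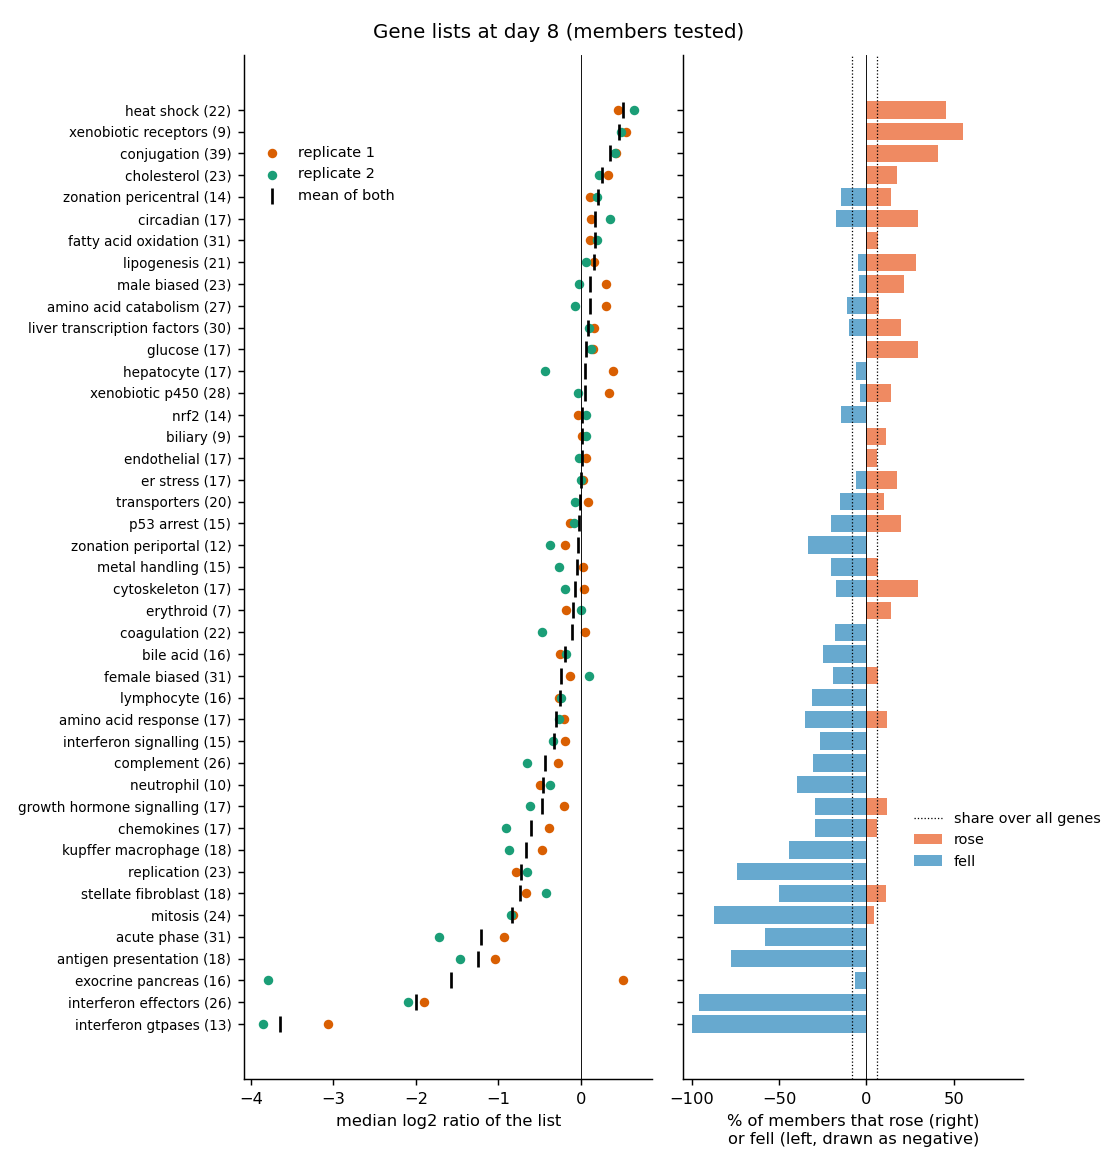
Left, median log2 ratio of each gene list on replicate 1 (orange) and replicate 2 (green) with the median of their mean as a tick; right, the percentage of members that rose or fell, with dotted lines at the share of all genes that did (6.28% and 8.06%). Numbers of members tested are in parentheses. The interferon-induced GTPases have the lowest median on both arrays, and the exocrine pancreas list is the one whose arrays lie farthest apart.

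Genes of dividing cells fell by a similar amount on both arrays. Of 23 DNA replication genes, 17 fell and none rose, with medians of -0.78 and -0.65. Uhrf1, which keeps DNA methylation through replication, fell most (-2.22 and -2.10, mean -2.16 ± 0.18 SE, adjusted p = 0.00807). The small subunit of ribonucleotide reductase, Rrm2, had -1.41 and -1.67. Helicase subunits fell from Mcm6 (-1.48 and -1.25) to Mcm4 (-0.79 and -0.76), while Mcm7 did not pass (-0.36 and -0.61, adjusted p = 0.0658). Tk1 (0.26 and 0.19) did not pass. Of 24 mitosis genes, 21 fell and 1 rose, with medians of -0.83 and -0.85. Bub1, of the spindle checkpoint, had -1.21 and -1.42, Cdk1, the mitotic kinase, -0.96 and -0.76, and the cyclins Ccna2 -1.26 and -1.0 and Ccnb1 -0.93 and -1.04. The member that rose, Ect2 (0.48 and 0.89), is an exchange factor that acts in cytokinesis. For replication genes, 6 passed without replicate 1 and 0 without replicate 2, and for mitosis genes, 10 passed without replicate 1 and 1 without replicate 2. The mitosis median ranged from -1.29 to -0.38 between ways of normalizing. Of 15 genes of growth arrest and p53, 3 fell and 3 rose: Gadd45g (-1.75 and -1.10) was the largest fall and Gadd45b (0.52 and 1.15) the largest rise, and Cdkn1a, the p21 inhibitor, did not pass (0.49 and -0.09). Without replicate 1 these were 1 fall and 1 rise, and without replicate 2 there were 0 of either.

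Of 22 heat shock chaperones and cochaperones, 10 rose, none fell and 12 did not pass, with a median of 0.52. Hsph1, a nucleotide exchange factor of the Hsp110 family, had 1.21 and 1.40 (mean 1.31 ± 0.12 SE, adjusted p = 0.00938). Its brightness was 7970 in the control and 18400 in the treated pool on replicate 1, and 3190 and 8440 on replicate 2. Both treated readings were above both controls. The constitutive Hsp70, Hspa8, had 1.26 and 1.20 and the inducible Hsp90, Hsp90aa1, 1.01 and 1.46, while Hsp90ab1 (0.09 and -0.15) and the classic inducible genes Hspa1a (0.63 and -0.46) and Hspa1b (0.05 and -0.31) did not pass. The cochaperones Chordc1 (0.90 and 1.07), Bag3 (0.89 and 0.71), Fkbp4 (0.79 and 0.65) and Dnajb1 (0.61 and 0.76) were among the rises. The mitochondrial pair Hspd1 (0.25 and 0.28) and Hspe1 (0.25 and 0.38) did not pass. Of the list, 4 passed without replicate 1 and 0 without replicate 2. A heat shock element, taken as GAA, TTC and GAA with any 2 bases between neighbours, on either strand, was in 1 of 17 promoters found for the list against 0.4% of all.

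Of 17 genes of the endoplasmic reticulum stress response 3 rose, Hspa5 or BiP (0.66 and 0.60), Creld2 (0.75 and 0.68) and Manf (0.79 and 0.81), and 1 fell, Pdia6 (-0.79 and -1.20). The amino acid response, which ATF4 drives, had 6 falls and 2 rises among 17. Trib3, a pseudokinase, fell most (-2.34 and -2.55, mean -2.44 ± 0.09 SE, adjusted p = 0.00191), followed by the serine synthesis enzyme Psat1 (-1.68 and -2.40) and the glutathione-degrading enzyme Chac1 (-1.36 and -2.43). Atf4 itself did not pass (0.18 and 0.22), and Ddit4, an inhibitor of mTORC1, rose (0.63 and 0.68). Of 14 targets of NRF2, a transcription factor of the oxidant response, 2 fell, G6pdx (-0.80 and -1.12) and Gsr (-0.53 and -0.38), and none rose. The share called, 14.3%, equals that over all genes. Some tubulins were higher. In the cytoskeleton list of 17, 5 genes rose and 3 fell, with Tuba1c at 0.91 and 1.59, Tubb4b at 0.83 and 1.12 and Tmsb4x at -0.74 and -1.30. The tubulin Tubb5 was near 0, with mean ratios of -0.008 and 0.193 for its 2 probes. The probes of Tmsb10 disagreed in sign, so its rise (1.03 and 1.37) is uncertain. Without replicate 1, 2 genes of the amino acid response and 1 NRF2 target fell and 2 cytoskeletal genes rose, with 0 calls in the stress list; without replicate 2, 1 gene of the amino acid response fell and 0 of the others passed.

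Of 39 drug-conjugating enzymes and hydrolases, 16 rose, none fell and 23 did not pass, with medians of 0.43 and 0.42. Besides Nat8, Nat8f5 and Ces1e, the rises were in carboxylesterases, such as Ces1g (1.22 and 1.67) and Ces2c (1.21 and 1.63), glutathione transferases, such as Gsta2 (0.68 and 1.59) and Gstm1 (0.84 and 0.85), and the sulfotransferase Sult1b1 (1.03 and 1.63). Of the 8 glucuronosyltransferases in this list 1 rose, Ugt1a9 (0.55 and 0.80), and Ugt2b5 (-0.13 and -0.23) is an example that did not pass. Of this list, 8 passed without replicate 1 and 3 without replicate 2. Of 9 genes in a list of xenobiotic receptors and their partner proteins, 5 rose and none fell. They were the receptors Nr1i3, or CAR (0.65 and 0.94), and Nr1i2, or PXR (0.55 and 0.39), and Alas1 (0.75 and 1.05), Por (0.84 and 0.60) and Cyb5a (0.78 and 0.49), which supply haem and electrons to cytochromes P450. Of 28 drug-metabolizing cytochromes P450, 4 rose (14.3%) and 1 fell (3.57%), against 6.28% and 8.06% of all genes. Cyp2c55 rose most (1.31 and 1.82, mean 1.56 ± 0.16 SE, adjusted p = 0.0106), and Cyp2b9 fell (-0.39 and -0.75). Cyp2b10, a standard target of CAR, did not pass (0.34 and 0.26, adjusted p = 0.0582), nor did Cyp3a11, a target of PXR (0.50 and -0.69). Without replicate 1, 1 receptor-list gene rose, 1 cytochrome rose and 1 fell, and without replicate 2 there were 0 calls in either list.

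**Figure D5:**
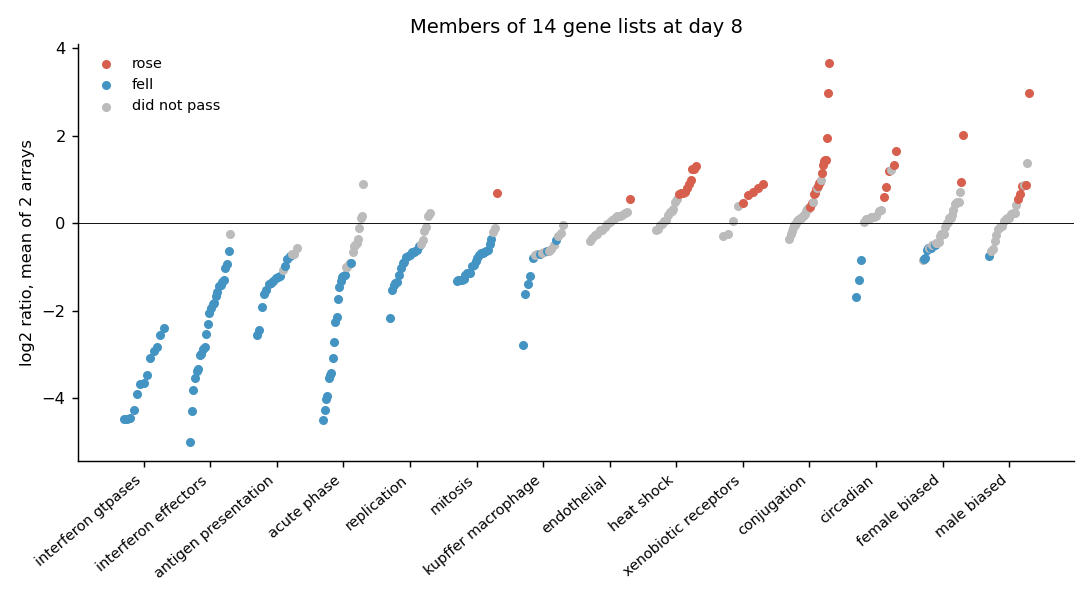
Each point is a member of 1 of 14 gene lists, placed at its mean log2 ratio over the 2 day 8 arrays and coloured by whether it rose, fell or did not pass. All interferon-induced GTPases lie below -2, while the highest points of the conjugation list are Nat8 and Nat8f5.

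Since Cux2 is itself sex-biased, genes known to differ between male and female liver were described as 2 lists. Of 23 male-biased genes tested, 5 rose and 1 fell, with a median of 0.12. Nat8f5 led, followed by Cspg5 (1.07 and 0.68), a proteoglycan, Cyp4a12b (0.60 and 1.1), Ugt2b1 (0.90 and 0.43) and Alas2. Cyp2u1 fell (-0.74 and -0.75). The classic male genes Cyp2d9 (0.02 and -0.31), Elovl3 (0.57 and -0.34) and Cyp7b1 (0.10 and -0.66) did not pass, Slco1a1 was at 0.20 and 0.27, and Bcl6, a male-biased repressor, was opposite on the arrays (-1.07 and 1.28). Of 31 female-biased genes, 6 fell and 2 rose, with a median of -0.24. The falls were Trim24 (-1.01 and -0.61), Rtn4 (-0.89 and -0.70), Slc22a26 (-0.66 and -0.56), Cyp2b9, the oxysterol hydroxylase Cyp39a1 (-0.61 and -0.53) and Tox (-0.58 and -0.41). The rises were Ntrk2 and Slco1a4 (0.65 and 1.23). Cyp3a41a (-0.09 and -0.92) and Cyp2c40 (0.36 and -1.37) did not pass. Without replicate 1, 2 male-biased genes rose, 2 female-biased genes fell and 1 rose. Without replicate 2, 1 male-biased gene rose and 0 female-biased genes passed. The core of the Cut repeat site, ATCGAT (the same on both strands), was in 8 of 615 promoters of genes that rose (1.3%), 5 of 1228 of genes that fell (0.407%) and 0.658% of those tested. Among the 15 largest rises it was in 0 of the 12 promoters found, and among the 15 largest falls in 1 of 13.

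Growth hormone sets the sex pattern of liver through JAK2 and STAT5. Of 17 genes of its pathway and its relatives, 5 fell and 2 rose. The receptor Ghr (0.47 and 0.39) and Stat5a (0.53 and 0.34) rose, Jak2 (-0.48 and -0.62) and the feedback inhibitor Socs2 (-0.75 and -0.80) fell, and Stat5b (-0.20 and -0.74), Igf1 (0.06 and -0.58) and Cish (-0.07 and -1.19) did not pass. Among 30 liver transcription factors, 6 rose and 3 fell. Esr1, the oestrogen receptor, had 0.92 and 1.06 (mean 0.99 ± 0.07 SE, adjusted p = 0.00637). Prox1 rose (0.45 and 0.58), Atf5 fell (-0.62 and -0.59), and the core hepatocyte factors Hnf4a (0.29 and 0.39) and Cebpa (-0.39 and -0.19) did not pass. Without replicate 1, 2 genes of the growth hormone list fell and 2 transcription factors rose, and without replicate 2, 1 and 0.

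Clock genes moved in both directions, 5 up and 3 down of 17. The clock is a loop in which CLOCK and BMAL1 drive their repressors PER and CRY and the nuclear receptors REV-ERB, which in turn repress BMAL1. The REV-ERB genes Nr1d1 (-1.61 and -1.76, mean -1.68 ± 0.10 SE, adjusted p = 0.00481) and Nr1d2 (-0.91 and -0.76) fell, as did the output gene Dbp (-1.37 and -1.22). The repressors Per2 and Cry1 (1.37 and 1.31) rose, with Clock (0.72 and 0.48) and Nfil3 (1.07 and 0.58) among the other rises. Arntl, which encodes BMAL1, was higher on both arrays without passing (1.82 and 0.59, adjusted p = 0.0924). Per1 (0.13 and 0.14) and Per3 (-0.12 and 0.17) did not pass. For Nr1d1, brightness was 418 in the control and 137 in the treated pool on replicate 1, and 405 and 120 on replicate 2. The treated readings lay below both controls. These values come from the brightest of 3 Nr1d1 probes, whose mean ratios ranged from -1.68 to -0.09. The E-box CACGTG (the same on both strands), to which CLOCK and BMAL1 bind, was in 4 of the 14 clock promoters found and in 6.05% of all. The rises numbered 3 without replicate 1 and 2 without replicate 2, and the falls 2 and 1.

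Lipid and glucose genes changed in smaller numbers, mostly upward. Of 21 lipogenic genes, 6 rose and 1 fell: beside Pnpla3, Mid1ip1, an activator of acetyl-CoA carboxylase, had 1.05 and 1.30 and Fasn, fatty acid synthase, 0.41 and 0.78, and Lpin1, a phosphatidate phosphatase, fell (-0.62 and -1.44). Scd1 was uneven (-0.23 and -1.76). Of 23 cholesterol synthesis genes 4 rose, among them Lss, lanosterol synthase (0.69 and 0.43), and Pmvk, phosphomevalonate kinase (0.62 and 0.32). The share of cholesterol genes that rose was 17.4%, against 6.28% of all genes. Of 31 genes of fatty acid oxidation 2 rose, Acot1 and Acaa1b (0.46 and 0.35), a share of 6.45% that is near that of all genes. Cyp4a10 (0.75 and 1.68) and Pdk4 (0.49 and 1.19), targets of PPARα, were higher on both arrays without passing. Of 17 glucose genes 5 rose, among them the glycogen-targeting subunit Ppp1r3b (1.23 and 1.25), glucose-6-phosphatase, G6pc (0.82 and 1.27), Ppp1r3c (0.88 and 0.89) and Pfkfb1 (0.75 and 0.95). Without replicate 1 the rises were 2 for lipogenesis, 0 for cholesterol, 1 for fatty acid oxidation and 1 for glucose, and without replicate 2 they were 1, 0, 1 and 0.

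Of 16 bile acid genes, 4 fell and none rose. Abcb11, the bile salt export pump, had -1.05 and -1.19 (mean -1.12 ± 0.08 SE, adjusted p = 0.00623), and Klb, the co-receptor that receives the gut signal FGF15, -0.95 and -1.05. Hsd3b7 (-0.65 and -0.77) and Cyp39a1 are enzymes of bile acid synthesis. Cyp7a1, the rate-limiting enzyme, was opposite on the arrays (-0.83 and 1.30), and Cyp8b1 was uneven (-1.35 and -0.24). Among 20 transporters, 3 fell and 2 rose, Abcg2 (0.42 and 0.49) being one of the rises. Of 27 genes of amino acid breakdown, 3 fell (11.1%) and 2 rose (7.41%), shares near those of all genes: Hgd (-1.12 and -1.19) and Hal (-0.93 and -1.32) fell most, and Asl of the urea cycle rose most (0.52 and 0.72). Zonation genes gave 4 falls in 12 periportal genes, such as Cdh1 (-0.65 and -1.17), and 2 falls and 2 rises in 14 pericentral ones, where Lgr5 (-0.70 and -0.43) and Tbx3 (-0.76 and -0.62), targets of WNT signalling, fell. Glul, the pericentral marker, did not pass (0.11 and 0.40). The falls without replicate 1 were 2 for bile acids, 1 for transporters, 1 for amino acid breakdown, 2 for periportal and 0 for pericentral genes, and without replicate 2 there were 0 in each.

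The series text gives one set of control pools for both days, so the day 8 and day 5 ratios may share controls and are set side by side without a measure of overlap. No gene passed for a difference between days in limma (0 of 25095 at an adjusted p under 0.05, with 621 at an unadjusted p under 0.05). Cux2 was at -1.07 and -1.20 at day 8 and -1.91 and -1.70 at day 5. Among named genes whose day 8 values both lay on one side of the day 5 values, Mt2 was lower at day 8 (-3.24 and -5.42) than at day 5 (-3.19 and -3.11), and Nat8f5 was less high (2.60 and 3.34 against 3.71 and 4.21). Gdf10, a growth factor of the TGFβ family, had -0.98 and -1.79 at day 8 and -0.45 and -0.20 at day 5. Slc26a3, an anion exchanger, had 1.08 and 1.22 and 0.20 and -0.57, and Prim2, a primase subunit, 0.11 and 0.83 and -0.92 and -1.20. The pancreatic genes were low on both day 5 arrays, Pnlip at -3.83 and -5.57, so that the day 8 treated pool of replicate 1 was the one of the 4 treated pools in which Pnlip was not below its control. For muscle genes the day 8 treated pool of replicate 2 was the one in which Myl1 was nearly equal to its control, with -4.01 and -2.39 on the day 5 arrays.

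Genes at the edge of the call had small changes. Just inside the threshold, at adjusted p of 0.0498 to 0.0499, were Zhx3 (-0.33 and -0.73), Trappc2l (-0.28 and -0.33), Mrpl40 (-0.40 and -0.28), Ptprg (-0.34 and -0.75), Pdzrn3 (-0.46 and -0.36) and C4a (-0.27 and -0.46). Just outside, at 0.0501 to 0.0503, were Otulinl (-0.38 and -0.61), Secisbp2 (0.29 and 0.37), Xrcc2 (-0.56 and -0.30), Papola (-0.58 and -0.34), Clu (-0.37 and -0.79) and Sdc2 (-0.35 and -0.28). Of 856 called genes with several probes, all probes agreed in sign for 90.4%.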

How the data were processed

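Each of the 4 arrays carried Trizol RNA of a treated and a control pool, amplified in 1 round and coupled to Alexa 555 or Alexa 647, per the labels' protocols. The deposited intensity values used are median spot and local background signals. They come from the scanner software Agilent Feature Extraction, version 10.7.1.1 according to the headers, and are not normalized, per the file headers. The deposited processed intensity values and the authors' deposited table of log10 ratios, which equals the scanner's log ratio within 5e-06 once turned to treated over control, served as alternatives. The scanner's deposited p-value per spot entered no test. Medians of the day 8 spot signals were 437 and 448 in red and 378 and 377.5 in green, over backgrounds of 308 to 341. Between 114 and 204 outlier spots per day 8 array were left out, and 0 were saturated. The number of arrays limits the precision, with 2 residual degrees of freedom and 2.78 from the prior.

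Median signals were background-corrected with normexp (offset 50), ratios were normalized by loess with control spots at weight 0, and spots were averaged per probe. Gene names came from matching RefSeq accessions to a GRCm38.p6 gene table, which named 23374 of 41174 (56.8%); the rest kept the file's accession. Of several probes the brightest stood for a gene. One lmFit and eBayes fit (limma 3.58.1, R 4.3.3) with a coefficient per day gave Benjamini-Hochberg adjusted p-values over 25095 genes. Mean signals had been planned where given, and median signals were used. Besides list members, Cux2 is named, with the 15 largest called changes each way that had one sign on both arrays and an informative symbol. Also named are the 10 largest array differences, up to 5 day differences and the 6 genes nearest the threshold, each way. Sult2a8, Reg3g and the genes of neighbouring runs were picked after their values were seen. The 43 lists name 826 places, of which 771 were tested; the values of some members are not reported here. The members and lists were chosen with earlier results of these data known. The fit was tested on simulated data.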

Additional observations from a re-analysis of the deposited data

How the results depend on the processing

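Against 3597 calls (294 among list members), median centring in place of loess left 3 (2 among list members) and took Cux2 (-1.13) to an adjusted p of 0.277. No background subtraction gave 2105 (160), the scanner's processed signals 1476 (160), and 1467 (159) came from the authors' deposited log ratios. The causes were not tested. Leaving out an array in turn gave 137 to 2498 calls and 41 to 265 among list members, the lowest without day 8 replicate 2, where Cux2 was -1.07 with an adjusted p of 0.0659; its value ranged from -1.20 to -1.07 over these settings. The filters on dim probes, averaging probes and the day 8 arrays alone kept each count within 1.5 times; Aquantile after loess leaves ratios as they are and tests nothing here. The estimate of no gene among the 3597 changed sign in these settings, apart from 4 when probes were averaged. Of 196 called genes named here, apart from Cux2, the log2 ratio shrank by more than 1.5 times in 34 without background subtraction, as in Nat8f5 (2.97 to 1.77), Uhrf1 (-2.16 to -1.33) and Nr1d1 (-1.68 to -0.77), and grew as much in 15 with processed signals, as in Slfn4 (-2.23 to -5.09). Averaging probes shrank 9, among them Trib3 (-2.44 to -1.57), Per2 (1.64 to 0.86) and Tmsb10 (1.20 to 0.05). The others were A2m (-3.07 to -1.71), Col3a1 (-1.24 to -0.69), Nr1d1 (-1.68 to -0.74), Slc17a8 (2.16 to 1.41), Sox9 (0.58 to 0.32) and Tmc7 (1.79 to 0.66). With the replicate block, which is also dye orientation, there were 7454 calls (468 among list members); deviations of same-numbered arrays correlated at 0.50 over 25091 genes, but the labels do not pair them and only 2 pairs exist. The difference between days gave 0 calls in every setting that could estimate it.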

Other observations

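Among genes outside the lists, Reg3g, a secreted antibacterial lectin, was not well above background in the treated pool of either array. It was 3.38-fold lower there than in the controls, with mean brightness of 66 in the treated and 236 in the control pools. This size is uncertain, since it depended on the background. The mean log2 ratio was -1.76 in the main fit, -0.57 without background subtraction and -6.02 with the scanner's processed signals. Reg3g was picked after its values were seen.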
